A study of Homo sapiens with 39 samples.

Results

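HepaRG™ cells treated with 2 DNA damagers that need metabolic activation were compared with HepaRG™ cells treated with 2 that act directly. Aflatoxin B1 (AFB1) and 2-nitrofluorene (2NF) formed the bioactivated class with 6 libraries, and cisplatin (CISP) and etoposide (ETP) formed the direct-acting class with 6 libraries. The libraries were chosen by chemical, as all treated libraries of these 4 chemicals, and together with 4 matched DMSO controls they made up 16 of the 39 libraries of the series. HepaRG™ is an established human liver line whose differentiated cultures hold cells like hepatocytes and cells like cholangiocytes. All cultures, controls included, were differentiated cells that received DMSO as vehicle, were dosed on 3 consecutive days and were collected 7 h after the third dose, at 55 h of exposure. AFB1 was given at 0.25, 1 and 2.5 µM, 2NF at 10, 50 and 250 µM, CISP at 2, 5 and 10 µM and ETP at 0.5, 2.5 and 10 µM, which are called low, mid and high. The study chose the concentrations from cell survival, so that equal ranks are not equal doses, and values of different chemicals at a rank are set side by side at doses that differ. RNA of 3 cultures was pooled into each library, so that a single condition has no replicate check and the chemical is the replicate of a class. With 2 chemicals against 2, the smallest two-sided p of an exact permutation test is 0.333. The AFB1 control also served colchicine (COL), a spindle poison, and each activation class had its own pair of controls.

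AFB1 is a mould toxin that liver cytochrome P450 enzymes such as CYP3A4 and CYP1A2 turn into an epoxide that binds guanine. 2NF is a nitroarene that becomes a DNA-binding amine derivative after reduction of the nitro group and oxidation and conjugation by enzymes such as CYP1A2. CISP forms platinum crosslinks in DNA after it loses chloride, and ETP traps type II topoisomerases on broken DNA, so that neither needs an enzyme to become active. DNA damage of each kind stabilises p53, which switches on genes of cell cycle arrest, repair and death.

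The 16 libraries held between 8504699 and 15224146 counts on gene targets, with 6 bioactivated libraries from 9008520 to 14894463 and 6 direct-acting libraries from 8504699 to 15224146. Between 60.1% and 63.0% of the 20802 gene targets reached 10 counts. A log2 ratio below is log2(RPM + 1) of a treated library minus that of its matched control, where RPM is a count scaled to a common library total. Changes of genes with few reads come out smaller on this scale. All 8 hepatocyte markers were above 1 RPM in every DMSO control, with ALB at 17790 to 33210 RPM. Of the 7 cholangiocyte markers 4 were, while KRT7 and EPCAM were listed at 0 in all 4. PTPRC, CD3E, VWF, CDH5 and COL1A2 were also listed at 0 there. Over 10589 genes with a mean of at least 5 RPM, AFB1 differed more than 2-fold from its control in 14, 115 and 591 genes from low to high concentration, and 2NF in 102, 675 and 708. ETP differed in 108, 190 and 82 genes, of which 107, 188 and 80 were higher than the control. CISP stood apart, with 755 genes at 2 µM, 540 at 5 µM and 62 at 10 µM, so that its largest number was at its smallest dose, and 726 and 472 of the genes at 2 and 5 µM were lower than the control. Pairs of DMSO controls differed in 59 to 203 genes, with 134 to 203 in the pairs that held the ETP control and 59 to 97 in the others. The ETP counts did not exceed the largest of these. The title of the 2 µM CISP library carries a letter that the labels do not explain, and no label marks the 5 µM library. From that letter and the CISP counts, the place of both in the dose series is taken here as uncertain, which was not tested. The median log2 ratio of 34 listed p53 targets did follow the CISP doses, at 0.04, 0.22 and 0.49 from 2 to 10 µM. The comparisons at the high concentration do not use the 2 and 5 µM libraries, and the CISP values at the low and mid concentrations below rest on them.

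At the high concentration the bioactivated chemicals resembled each other. Across the 10589 genes, which are not independent replicates, the correlation of the log2 ratios was 0.701 between AFB1 and 2NF and 0.415 between CISP and ETP. Between the classes it was 0.462 for AFB1 and CISP, 0.336 for AFB1 and ETP, 0.288 for 2NF and CISP and 0.245 for 2NF and ETP. At the mid concentration AFB1 and 2NF had a correlation of 0.543, CISP and ETP had -0.113, and the pairs between classes ran from -0.185 to 0.279. At the low concentration AFB1 and 2NF were at 0.175 and CISP and ETP at -0.492. No pair of these chemicals had a control library in common.

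The class difference was tested gene by gene on the counts with edgeR's quasi-likelihood test, in 1 fit per concentration over 4 treated libraries and 4 controls, blocked by control set, with 2 residual degrees of freedom. A gene is called when its p, adjusted by Benjamini-Hochberg over all genes tested, is below 0.05. At the high concentration 89 of 13190 genes (0.675%) were called higher and 228 (1.73%) lower in bioactivated than in direct-acting chemicals. Set against their own controls, the bioactivated chemicals raised 833 genes (6.32%) and lowered 869 (6.59%), and the direct-acting chemicals raised 11 (0.0834%) and lowered 1 (0.00758%). Each gene has 1 estimate of spread for both classes, so the spread between AFB1 and 2NF also enters the tests of CISP and ETP. Direct-acting calls numbered 12 here, 45 with DESeq2, another test, and 230 without a filter on low counts. Their small number is thus not an absence of change. Methyl methanesulfonate (MMS), another direct-acting damager, given in water, turned the 317 calls to 0 when its libraries were added to the direct-acting class. Without ETP 35 genes were called, without CISP 158, without 2NF 760 and without AFB1 1370. All 317 genes kept their direction in each of these fits. The fits reuse most or all of the libraries that the genes were called from, so the kept direction is not an independent check.

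Cytochrome P450 genes outside the CYP1 family had a median class difference of -2.16 at the high concentration. These enzymes oxidise drugs, steroids and bile acid precursors and are the hallmark of mature hepatocytes. Of 17 list members with a mean of at least 1 RPM, 12 were called lower in bioactivated than in direct-acting chemicals and 0 higher. Over all genes tested the shares were 1.73% lower and 0.675% higher. Against their own controls, 16 were called lower in the bioactivated chemicals, against 6.59% of all genes tested, and 0 were called in the direct-acting ones. The median log2 ratio of the list at the high concentration was -2.86 in AFB1, -2.42 in 2NF, -0.38 in CISP and -0.11 in ETP, against 0.09, 0.05, 0.03 and -0.01 over all 12676 genes at that level. DMSO controls differed from each other by up to 0.46 in this median.

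CYP3A4 (target AMPL31771047), the main drug-oxidising P450 of liver and an activating enzyme of AFB1, went from 113 RPM in the control to 99.4, 28.4 and 2.53 RPM over the 3 AFB1 concentrations. In 2NF it went from 279 to 224, 70.8 and 27.9 RPM. CISP libraries had 98.3, 131 and 98.6 RPM against 165 in the control, and ETP libraries 208, 156 and 126 RPM against 138. Both bioactivated chemicals at the high concentration thus lay below every other library, and CISP and ETP differed from their controls by -0.73 and -0.14 on the log2 scale, less than the 1.29 by which DMSO controls differed from each other. The difference between the classes was -3.66 (standard error 0.49, edgeR adjusted p = 0.00639). CYP2B6, a target of the nuclear receptors CAR and PXR, had 2.34 RPM in AFB1 and 14.0 in 2NF at the high concentration, 48.7 in CISP and 78.3 in ETP, against 59.9 to 105 RPM in the DMSO controls. Its difference was -3.47 (standard error 0.41, edgeR adjusted p = 0.00406), and that of CYP2A6, the nicotine oxidase, was -3.64 (standard error 0.39, edgeR adjusted p = 0.00233). For CYP7A1, the rate-limiting enzyme of bile acid synthesis, 2 counts remained in AFB1 and 6 in 2NF at the high concentration from 324 and 103 in their controls, while CISP had 29 counts from 65 and ETP 48 from 52. CYP3A5 was called with a smaller difference of -0.92 (standard error 0.20, edgeR adjusted p = 0.0487).

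The other hepatocyte lists moved in the same direction. The counts of this paragraph stand beside 1.73% of all genes called lower between the classes and 6.59% called lower in bioactivated chemicals against controls. Of 10 bile acid and urea cycle enzymes, 7 were called lower in the class comparison and 10 fell in bioactivated chemicals, with medians of -2.06 in AFB1, -2.49 in 2NF, -0.35 in CISP and -0.09 in ETP. The median class difference of this list, -2.06, was -3.18 and -1.20 with pseudocounts of 0.1 and 5, and -0.48 over the members with at least 10 counts in each of the 16 libraries. CPS1, the first enzyme of the urea cycle, had 10.5 RPM in AFB1 and 4.31 in 2NF at the high concentration against 42.1 in CISP and 55.4 in ETP, with 47.4 to 101 RPM in the controls. Its class difference was -3.38 (standard error 0.21, edgeR adjusted p = 0.000239), and that of ARG1, the last enzyme of the cycle, was -4.64 (standard error 0.74, edgeR adjusted p = 0.0133). Of 16 secreted proteins of the hepatocyte, 10 were called lower and 0 higher, with medians of -1.39, -1.05, -0.20 and -0.13 in AFB1, 2NF, CISP and ETP. TTR, the thyroxine and retinol carrier, had 1140 and 1198 RPM in AFB1 and 2NF and 3762 and 4786 in CISP and ETP, against 4802 to 5488 in the controls, and APOC3, an inhibitor of lipoprotein lipase, differed by -2.28 (standard error 0.33, edgeR adjusted p = 0.00922). ALB, which encodes albumin, had 19900 and 8384 RPM in AFB1 and 2NF and 26120 and 24450 in CISP and ETP. It fell by 0.95 (standard error 0.24, edgeR adjusted p = 0.0314) in the bioactivated chemicals against their controls, and the difference between the classes was not called (edgeR adjusted p = 0.208).

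Genes of drug handling were called in part, where all genes tested had 1.73% called lower and 0.675% called higher between the classes. Of 18 drug and bile transporters 5 were called lower and 0 higher, among them SLC22A7, a hepatic uptake carrier of organic anions. SLC22A7 had 0.94 RPM in AFB1 and 1.63 in 2NF at the high concentration, 15.4 in CISP and 20.7 in ETP, against 15.7 to 36.2 RPM in the controls, a difference of -4.90 (standard error 0.33, edgeR adjusted p = 0.000239). ABCB11, the bile salt export pump, was called at -3.82 (standard error 0.74, edgeR adjusted p = 0.0336) on 2 to 68 counts. Of 16 conjugation enzymes 4 were called lower and 0 higher, among them SULT2A1, a sulfotransferase of steroids, at -2.24 (standard error 0.18, edgeR adjusted p = 0.000591), and UGT2B4, a glucuronosyltransferase of bile acids, at -2.13 (standard error 0.28, edgeR adjusted p = 0.00631). GSTA1, a glutathione transferase, fell in bioactivated chemicals by 1.45 (standard error 0.24, edgeR adjusted p = 0.0042) and was not called between the classes (edgeR adjusted p = 0.0842). AKR7A3, the aldehyde reductase of aflatoxin dialdehyde, had 68.8 RPM in AFB1, 48.6 in 2NF, 128 in CISP and 154 in ETP, a difference of -1.40 (standard error 0.17, edgeR adjusted p = 0.00392). Among 8 genes listed for AFB1 epoxidation and detoxification, 7 were at 1 RPM or more and 3 of them were called lower. Of the 9 genes of 2NF metabolism 1 was called higher, CYP1B1, whose controls differed widely as given below, and 0 were called lower. The median class difference of these 9 genes was -0.12, with 6 below 0 and 3 above.

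Of 14 transcription factors of the hepatocyte, 3 were called lower and 9 fell in the bioactivated chemicals, against 1.73% and 6.59% of all genes tested. NR1I3, the nuclear receptor CAR, had 2 and 4 counts in AFB1 and 2NF at the high concentration and 21 and 42 in CISP and ETP, and ONECUT1 differed by -1.11 (standard error 0.19, edgeR adjusted p = 0.0184). HNF4A, the central regulator of hepatocyte genes, had 40.4 RPM in AFB1, 79.4 in 2NF, 81.8 in CISP and 96.7 in ETP. It fell in the bioactivated chemicals by 0.90 (standard error 0.16, edgeR adjusted p = 0.00562), and between the classes the adjusted p was 0.0733.

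The summed level of the 8 hepatocyte markers was 12820 to 24480 RPM in the bioactivated libraries at the high concentration, 36640 to 37070 in the direct-acting ones and 30910 to 45500 in the controls. For the 7 cholangiocyte markers the sums were 321 to 1368, 728 to 794 and 468 to 1344 RPM. The sums of the 3 fibroblast markers were 38.1 to 41.0, 34.2 to 36.8 and 31.9 to 46.4 RPM. Those of the 3 endothelial markers were 7.96 to 8.60, 5.29 to 5.37 and 2.72 to 11.4 RPM, and those of the 3 blood cell markers were 66.2 to 115, 84.7 to 86.4 and 78.0 to 99.0 RPM. In the controls the endothelial sum was PECAM1 alone and the blood cell sum CD68 alone. ALB, at 17790 to 33210 RPM, and KRT19, at 397 to 1233 RPM, made up most of the hepatocyte and cholangiocyte sums there. The sums thus rest mainly on single genes. The part of a changed cell composition in these results was not tested. In bulk libraries, fewer hepatocyte-like cells and less RNA per cell cannot be told apart.

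Hepatocyte genes were lower in other chemicals as well. The median of the P450 list at the high concentration was -1.251 in MMS and -2.03 in COL, and that of the secreted proteins was -1.54 in MMS and -1.41 in COL. MMS is a direct-acting alkylator and COL a spindle poison, so that lower levels of these lists were not particular to bioactivated chemicals, and activation and the strength of the response cannot be told apart among these libraries.

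Hepatocyte genes were lower at each AFB1 concentration than at the one before, whereas in 2NF most of the difference was present at the mid one. The median of the P450 list was -0.43, -1.35 and -2.86 over the 3 AFB1 concentrations and 0.03, -1.94 and -2.42 over those of 2NF. CISP had -0.20, -0.12 and -0.38, and ETP had 0.21, 0.03 and -0.11. FABP1, the fatty acid binding protein of liver, had 167 RPM in the AFB1 control and 122, 60.8 and 10.9 RPM over the concentrations. In 2NF it had 249 RPM in the control and 181, 12.6 and 21.2 RPM, so that its lowest library was the mid one. The CISP libraries had 104, 126 and 107 RPM and the ETP libraries 174, 132 and 139 RPM against 117 to 249 RPM in the controls, with 2 CISP libraries just below that range. The class difference of FABP1 at the high concentration was -3.77 (standard error 0.19, edgeR adjusted p = 0.000137).

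Promoters of 2 called genes are shown because letters from the binding site of HNF1, a hepatocyte factor, occur in them. These letters, GTTAAT, read on both strands, occur in 6.89% of 27305 RefSeq promoters of 300 bases (GRCh38.p14, 250 bases before to 50 after the start). Of the 228 lower genes 170 had a promoter in that table, under 80%, and no share is given for them. G6PC, the last enzyme of glucose release, was called at -4.62 (standard error 0.82, edgeR adjusted p = 0.0216), with the promoter at chr17:42900549-42900848 on the plus strand. ADH4, an alcohol dehydrogenase of liver, was called at -3.91 (standard error 0.32, edgeR adjusted p = 0.000643), with the promoter at chr4:99144248-99144547 on the minus strand. They were taken as the called genes with the largest fall whose promoter held the letters, which are in capitals. The match is a description of the sequence.
G6PC: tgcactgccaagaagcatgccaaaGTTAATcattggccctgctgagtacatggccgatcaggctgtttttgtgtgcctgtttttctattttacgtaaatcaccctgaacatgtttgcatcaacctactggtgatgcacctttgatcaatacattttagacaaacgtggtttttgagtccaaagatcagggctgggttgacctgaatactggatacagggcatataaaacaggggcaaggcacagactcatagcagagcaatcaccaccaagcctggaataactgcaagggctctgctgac
ADH4: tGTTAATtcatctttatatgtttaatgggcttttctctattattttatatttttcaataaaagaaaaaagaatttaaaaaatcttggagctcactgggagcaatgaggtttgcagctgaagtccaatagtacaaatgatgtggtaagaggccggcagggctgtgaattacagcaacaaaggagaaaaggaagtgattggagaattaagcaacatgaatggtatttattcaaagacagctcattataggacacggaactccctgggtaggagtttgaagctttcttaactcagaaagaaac

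Cell cycle genes were among those called higher. Of 19 mitosis genes, 6 were called higher in bioactivated than in direct-acting chemicals, against 0.675% of all genes tested, and 0 lower. Against their controls, 17 were called higher in bioactivated chemicals, against 6.32% of all genes tested, and 0 were called in direct-acting ones. At the high concentration 18 of the 19 had a log2 ratio above 0 in each of CISP, ETP and 2NF, and 19 in AFB1. A missing call is thus not an absence of change. The median log2 ratio was 1.68 in AFB1, 2.62 in 2NF, 0.69 in CISP and 0.59 in ETP, with 1.15 in MMS and 1.87 in COL, and DMSO controls differed by up to 0.35. CENPF, a kinetochore protein, had 73.8 RPM in AFB1, 118 in 2NF, 40.0 in CISP and 24.5 in ETP, against 15.3 to 22.4 RPM in the controls. Its class difference was 1.85 (standard error 0.31, edgeR adjusted p = 0.0157). KIF11, the spindle motor Eg5, had 10.9 and 11.9 RPM in AFB1 and 2NF and 4.72 and 4.00 in CISP and ETP, against 1.65 to 3.86 RPM in the controls, a difference of 2.29 (standard error 0.39, edgeR adjusted p = 0.0187). DEPDC1 and CCNF, which encodes cyclin F, were called at 2.34 and 3.16. PLK1 and KIF20A, both mitotic regulators, had no call between the classes (edgeR adjusted p = 0.0906 and 0.0527) and rose in bioactivated chemicals by 2.24 and 2.52 (edgeR adjusted p = 0.00255 and 0.000934).

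TOP2A, the topoisomerase that ETP traps, was called at 1.76 (standard error 0.20, edgeR adjusted p = 0.00283). Over the low, mid and high concentrations it had 53.95, 109 and 162 RPM in AFB1 from 28.4 in the control, and 59.2, 136 and 198 RPM in 2NF from 24.8. In CISP it had 54.8, 35.5 and 74.0 RPM from 38.1, and in ETP 51.3, 112 and 58.7 RPM from 31.8. All treated libraries but CISP at 5 µM were above the controls' range of 24.8 to 38.1 RPM, AFB1 and 2NF were higher at each step, and ETP was highest at the mid concentration. The mitosis list had the same order in ETP, with medians of 0.24, 1.23 and 0.59.

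DNA replication genes were above their controls in both classes. Over all genes tested, 6.32% were called higher than controls in bioactivated chemicals, 0.0834% in direct-acting ones and 0.675% between the classes. Of 24 genes, 21 were called higher than their controls in bioactivated chemicals and 2 in direct-acting ones. Between the classes 3 were called, all higher in bioactivated chemicals. The medians were 1.24 in AFB1, 1.38 in 2NF, 0.59 in CISP and 0.81 in ETP. RRM2, the regulated subunit of ribonucleotide reductase, had 183, 219, 83.0 and 137 RPM in AFB1, 2NF, CISP and ETP at the high concentration, against 28.9 to 42.9 RPM in the controls. It rose in both classes, by 2.67 (edgeR adjusted p = 6.2e-05) in bioactivated and 1.33 (edgeR adjusted p = 0.0467) in direct-acting chemicals, and the difference of 1.34 was called (standard error 0.25, edgeR adjusted p = 0.0278). Its partner RRM1 differed by 0.97 (standard error 0.19, edgeR adjusted p = 0.0332). TK1 and MCM2, a thymidine kinase and a helicase subunit, were not called between the classes (edgeR adjusted p = 0.111 and 0.102). Of 22 listed Fanconi and homologous recombination genes, 16 were called higher than their controls in bioactivated chemicals and 0 were called in direct-acting ones. Between the classes 0 of the list were called, and UBE2T, a Fanconi pathway gene outside the list, was called at 1.03. The list medians were 1.125 in AFB1, 1.38 in 2NF, 0.40 in CISP and 0.78 in ETP. FANCD2 and FANCI, the clamp of the crosslink repair pathway, had differences of 1.79 and 1.79 (edgeR adjusted p = 0.118 and 0.108), and FANCD2 had 13.1 RPM in AFB1, 17.5 in 2NF, 4.35 in CISP and 6.23 in ETP. Nucleotide excision repair genes had medians of 0.18, 0.03, 0.06 and -0.01 and 0 of 17 called.

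Histone genes were also among those called higher. HIST1H3B, a replication-dependent H3 gene, had 204 and 290 RPM in AFB1 and 2NF and 87.8 and 66.2 in CISP and ETP, against 41.5 to 58.2 RPM in the controls, a difference of 1.83 (standard error 0.29, edgeR adjusted p = 0.0133). HIST1H2AH, HIST1H2AE and HIST1H4C were called at 1.60, 1.37 and 1.03 (edgeR adjusted p = 0.0133, 0.0193 and 0.00934). In COL, which raised the mitosis list, HIST1H3B had a log2 ratio of -0.12 and HIST1H4C of -0.59. Single histone values are uncertain, because the genes exist in near-identical copies that may share reads.

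Promoters of the 2 called mitosis genes with the largest difference that held both cell cycle motifs are shown, with the letters in capitals. TTTGAA, the letters of the cell cycle homology region, occurs on either strand in 15.4% of the 27305 promoters and CCAAT in 35.7%. No match to one motif overlaps a match to the other in the promoters printed. Of the 89 higher genes 65 had a promoter in the table, so no share is given. The KIF11 promoter lies at chr10:92592880-92593179 and that of CENPF at chr1:214602945-214603244, both on the plus strand, with 1 and 4 matches to CCAAT and 1 match each to TTTGAA.
KIF11: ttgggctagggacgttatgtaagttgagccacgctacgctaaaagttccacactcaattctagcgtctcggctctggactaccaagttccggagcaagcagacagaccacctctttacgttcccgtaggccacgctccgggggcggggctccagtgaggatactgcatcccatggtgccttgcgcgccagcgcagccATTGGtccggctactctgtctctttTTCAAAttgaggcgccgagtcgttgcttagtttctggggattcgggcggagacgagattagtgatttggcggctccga
CENPF: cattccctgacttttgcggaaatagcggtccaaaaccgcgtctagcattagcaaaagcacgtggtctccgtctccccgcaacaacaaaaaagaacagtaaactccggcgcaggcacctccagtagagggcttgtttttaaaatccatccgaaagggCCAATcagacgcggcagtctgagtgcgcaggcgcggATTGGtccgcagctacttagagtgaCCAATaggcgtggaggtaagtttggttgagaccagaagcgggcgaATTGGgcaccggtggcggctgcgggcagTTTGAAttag

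**Figure D1:**
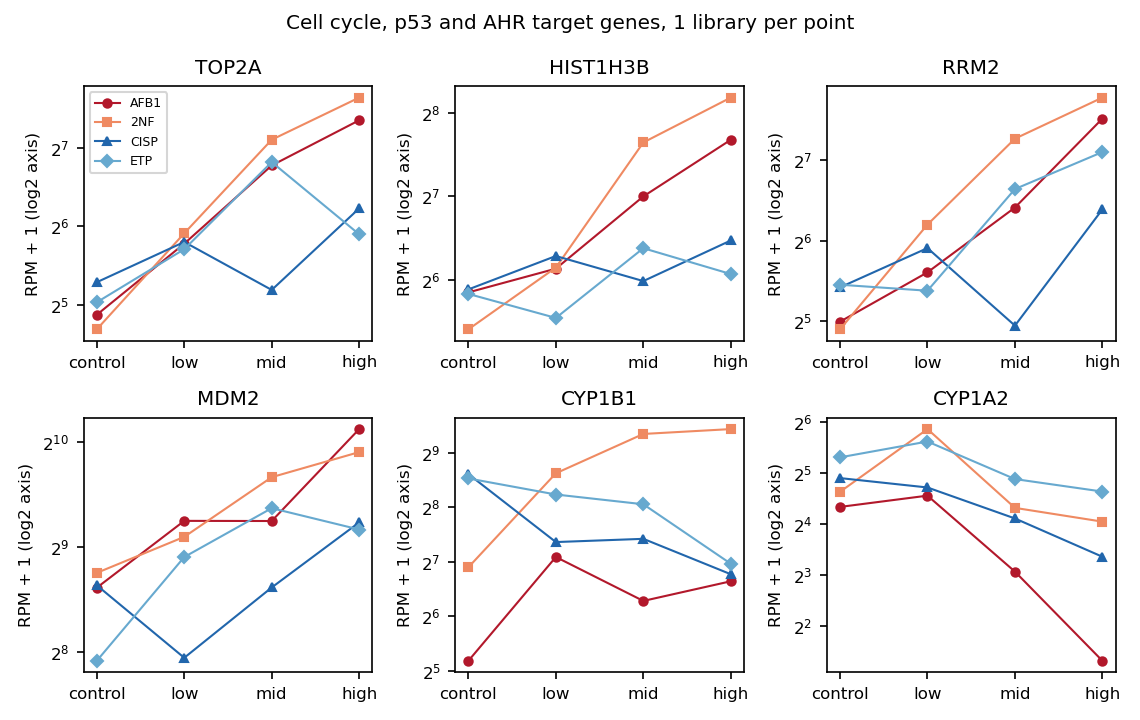
RPM + 1 on a log2 axis of TOP2A, HIST1H3B, RRM2, MDM2, CYP1B1 and CYP1A2 in the control and at 3 concentrations of each chemical, with 1 library per point. TOP2A, HIST1H3B and RRM2 are highest in AFB1 and 2NF at the high concentration, and in CYP1B1 the controls themselves lie at 35.3, 118, 390 and 369 RPM for AFB1, 2NF, CISP and ETP.

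The listed genes switched on by p53 were mostly above their controls in both classes, and none of those listed was called between the classes. Of 34 p53 targets in 4 lists, 31 had a log2 ratio above 0 in all 4 chemicals at the high concentration, against 2274 of 12676 genes overall. Against their controls 25 were called higher in bioactivated chemicals and 2 in direct-acting ones, and 0 were called between the classes by edgeR. Higher calls against controls made up 6.32% and 0.0834% of all genes tested. The class difference in mean log2 ratio was above 0 in 29 of the 34, against 7340 of 12676 genes overall. A missing call between the classes is thus not an absence of difference. The median log2 ratios were 0.97 in AFB1, 0.66 in 2NF, 0.49 in CISP and 0.64 in ETP, and DMSO controls differed by up to 0.21. CDKN1A, which encodes the cell cycle inhibitor p21, had 761, 1039, 745 and 1013 RPM in AFB1, 2NF, CISP and ETP, against 505 to 619 RPM in the controls. All 4 libraries were above the controls, the class difference was 0.04 (standard error 0.17, edgeR adjusted p = 0.941), and the direct-acting chemicals alone did not reach a call (0.56, edgeR adjusted p = 0.164). MDM2, the ubiquitin ligase that restrains p53, had 1112, 955, 601 and 573 RPM against 241 to 431 RPM in the controls, a difference of 0.34 (standard error 0.23, edgeR adjusted p = 0.572). SFN, which encodes the arrest protein 14-3-3 sigma, rose by 2.04 in bioactivated (edgeR adjusted p = 0.000326) and by 1.60 in direct-acting chemicals (edgeR adjusted p = 0.0467). A set of p53 targets had larger values in bioactivated chemicals without a call, namely FDXR at 0.81 and the death receptor TNFRSF10B at 0.57 (edgeR adjusted p = 0.138 and 0.104). GDF15, a stress hormone, reached 657 RPM in 2NF against 301 in AFB1, 145 in CISP and 266 in ETP, so that 1 chemical set its class mean.

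Targets of the aryl hydrocarbon receptor (AHR), a sensor of planar aromatic compounds that induces CYP1 enzymes, had medians of 0.62 in AFB1, 1.36 in 2NF, -0.83 in CISP and -0.39 in ETP. Of 9 genes 3 were called higher and 0 lower, against 0.675% and 1.73% of all genes tested. The controls moved with this result. CYP1B1, an AHR-induced oxidase, had 35.3 RPM in the AFB1 control and 118 in the 2NF control, but 390 in the CISP control and 369 in the ETP control. At the high concentration it had 98.9 RPM in AFB1, 692 in 2NF, 108 in CISP and 124 in ETP. Its class difference of 3.69 (standard error 0.31, edgeR adjusted p = 0.000643) was close to the 3.43 by which DMSO controls differed, and the treated levels of AFB1 were below those of CISP and ETP. CYP1A1, the most inducible AHR target, was at 942 RPM in 2NF and at 108, 144 and 221 RPM in AFB1, CISP and ETP, against 132 to 435 RPM in the controls, and was not called (2.09, standard error 0.62, edgeR adjusted p = 0.146). Its values in 2NF were 886, 980 and 942 RPM over the concentrations, so that it was already at that level at 10 µM. CYP1A2, an activating enzyme of both AFB1 and 2NF, had a log2 ratio below 0 in all 4 chemicals, -3.02 in AFB1, -0.58 in 2NF, -1.54 in CISP and -0.67 in ETP (class difference -0.61, edgeR adjusted p = 0.769). ALDH3A1, an aldehyde dehydrogenase induced through AHR, had 785 and 1196 RPM in AFB1 and 2NF and 352 and 591 RPM in CISP and ETP, levels that do not overlap (1.79, standard error 0.28, edgeR adjusted p = 0.0128). Set against the mean of the 4 DMSO controls instead of matched ones, the median class difference of the AHR list was 0.51 instead of 1.26.

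Controls also differed in called stress genes, and the choice of control affected most of the called genes named here. Set against the mean of the 4 DMSO controls, the log2 class difference changed in size for 40 of them. It changed sign for 1, AKAP12, and stayed about the same for 16. CHAC1, a glutathione-degrading target of the integrated stress response, had 1.43 and 3.25 RPM in the AFB1 and 2NF controls and 9.73 and 9.31 in those of CISP and ETP, and at the high concentration 1.78, 9.78, 1.85 and 3.17 RPM in AFB1, 2NF, CISP and ETP. Its treated levels overlap, and its difference of 3.00 (standard error 0.52, edgeR adjusted p = 0.0204) comes with a higher value than the control in 2NF and lower values than the controls in CISP and ETP. STC2, a secreted stress protein, and SLC7A5, an amino acid carrier, had controls of 2.79 and 1.99 against 10.8 and 10.2 RPM and of 2.51 and 4.50 against 8.41 and 7.94 RPM, in the same order. HSPA6, an inducible heat shock protein with a near-identical copy, had 2 to 77 counts. RRAD, a small GTPase, had treated levels that do not overlap, at 22.6 and 30.3 RPM in AFB1 and 2NF and 11.4 and 10.8 in CISP and ETP. Its controls lay at 2.83 to 7.92 RPM. Its difference (2.31, standard error 0.34, edgeR adjusted p = 0.011) is larger than the treated levels alone give, so differences between controls are part of it. Across all calls, the treated levels at the high concentration were higher in both bioactivated libraries than in both direct-acting ones for 82 of the 89 genes called higher, an order found in 23.4% of the genes tested. They were lower for 222 of the 228 genes called lower, an order found in 15.4%. The calls were made on these same libraries, so this order is in part built in and is not an independent check. SRXN1, an NRF2-induced reductase, was called at 1.19 (edgeR adjusted p = 0.0171) with overlapping levels, as 1 of 12 NRF2 targets. HMOX1, another NRF2 target, had 56.5 RPM in 2NF and 22.0 to 24.5 RPM in AFB1, CISP and ETP, against 18.8 to 25.04 RPM in the controls. MT1A, a metallothionein, was called lower at -1.03 (edgeR adjusted p = 0.0306) with overlapping levels, as 1 of 6 metallothioneins.

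The log2 ratios gave a second view that does not use a model. A gene was taken as separated when both bioactivated chemicals lay above or below both direct-acting ones at the high concentration by more than the largest difference between 2 of the 4 DMSO controls. Of 10589 genes, 523 (4.94%) were separated with bioactivated chemicals higher and 396 (3.74%) with them lower. Of 16 mitosis genes at 5 RPM or more 15 were separated upward, as were 10 of 22 replication genes, while 11 of 15 P450 genes and 9 of 14 secreted proteins were separated downward. Of 32 p53 targets 5 were separated upward and 0 downward. At the mid concentration 327 genes were separated upward and 181 downward, and 73 and 90 of them were so at the high concentration as well. Among those separated in the same direction at both, genes with wide gaps downward were SLC22A7, FABP1, ANG, ADH4, CYP2A6, ACSM2A, CYP3A4 and HSD17B6. ANG, which encodes angiogenin, had 1.78 and 2.30 RPM in AFB1 and 2NF and 11.6 and 25.8 in CISP and ETP, and HSD17B6, a steroid dehydrogenase, had 28.7 and 12.9 against 132 and 181 RPM. ACSM2A, an acyl-CoA synthetase with a near-identical neighbour gene, had 12.6 and 14.5 against 87.2 and 116 RPM. Upward, BAI2 had 11.5 and 14.3 RPM in AFB1 and 2NF against 6.58 and 6.00 RPM in CISP and ETP. UBE2T, the ubiquitin-conjugating enzyme of the Fanconi pathway, had 74.6 and 63.2 against 37.4 and 39.0 RPM. FBXO5, an inhibitor of the anaphase-promoting complex, had 19.7 and 20.3 against 9.91 and 9.29 RPM, and ERCC6L, a mitotic helicase, had 10.9 and 15.3 against 5.19 and 5.64 RPM. F2RL2, a thrombin receptor, and HIST1H4H had ratios of 0.97 and 0.50 in AFB1, 1.71 and 1.18 in 2NF, 0.08 and -0.45 in CISP and -0.16 and -0.39 in ETP.

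Some genes fell to the edge of detection in bioactivated chemicals. ABCG5, a sterol exporter, had 2 counts in AFB1 and 0 in 2NF at the high concentration and 23 and 28 in CISP and ETP. C2orf54 and PROL1 had 1 count in each bioactivated library and 22 and 17 and 7 and 19 counts in CISP and ETP. RDH16, a retinol dehydrogenase, had 1.31 and 0.96 RPM against 4.63 and 7.06 RPM, and its controls were at 15.97 and 13.0 RPM for AFB1 and 2NF and at 2.64 and 4.62 RPM for CISP and ETP. PCK1, the entry enzyme of gluconeogenesis, had 1 and 8 counts against 9 and 30, and TAT, a tyrosine aminotransferase, had 0.47 and 0.96 RPM against 3.89 and 9.29 RPM. The size of a fitted difference depends on few counts in these genes. SAA4, a constitutive acute phase apolipoprotein, was called at -1.59 (standard error 0.17, edgeR adjusted p = 0.00233) on 28.5 to 104 RPM at the high concentration and in the controls. CRP, the C-reactive protein, had 2.43 and 10.1 RPM in AFB1 and 2NF and 14.3 and 29.04 in CISP and ETP, with controls from 13.5 to 57.2 RPM, and missed the threshold (-3.19, edgeR adjusted p = 0.0708).

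A smaller number of genes differed from their controls alike in all 4 chemicals. Of 10589 genes, 193 (1.82%) were above their control by more than the difference between DMSO controls in each of the 4 chemicals at the high concentration, and 74 (0.699%) were below by as much. Among the former were 13 of 32 p53 targets, 11 of 22 replication genes and 8 of 16 mitosis genes. The genes with the largest rise in the least affected chemical were S100A2, SFN, ASF1B, CEL and TYMS. S100A2, a calcium-binding p53 target, had 1216, 462, 231 and 241 RPM in AFB1, 2NF, CISP and ETP from 235, 89.6, 74.0 and 61.5 RPM in their controls. TYMS, the thymidylate synthase, had 335, 290, 160 and 168 RPM from 71.2 to 92.6 RPM, and ASF1B, a histone chaperone of replication, had 39.0, 35.5, 18.6 and 26.8 RPM from 6.16 to 7.57 RPM. CEL, a lipase, had 13.9, 7.48, 6.02 and 6.23 RPM from 1.82 to 2.83 RPM. The direct-acting chemicals raised TREM2, CDC42BPG, S100A2, ASF1B, SFN, KIAA0101, RRM2, AKAP12, TYMS, PLK2 and GSN and lowered CYP1B1 in the edgeR fit, and 11 of these 12 genes were also called in bioactivated chemicals, CYP1B1 in the other direction. These genes were named after their values were seen. AKAP12, a scaffold of protein kinase A, was the exception, and its controls lay at 74.4, 67.4, 25.2 and 27.8 RPM for AFB1, 2NF, CISP and ETP. TREM2, a lipid receptor, had 12.8, 3.64, 1.57 and 6.11 RPM at the high concentration and at most 0.30 RPM in the controls. Downward, HLF, a circadian transcription factor of liver, had log2 ratios of -1.27, -1.26, -0.68 and -0.78 in AFB1, 2NF, CISP and ETP, and ARHGAP24, SOWAHB and TENM1 had ratios between -0.54 and -1.34.

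Genes of large span were lower in AFB1 and CISP, across the activation classes. Span is the length from the start to the end of a gene in GENCODE v29, which was found for 93.0% of the 10589 genes. Of 206 genes over 400 kb, 84.0% had a log2 ratio below 0 in AFB1 at the high concentration and 85.4% in CISP, against 37.6% and 44.3% of all genes with a span. In 2NF the share was 62.6% and in ETP 60.7%, against 42.3% and 53.1%. The medians of these genes were -0.44 in AFB1, -0.16 in 2NF, -0.42 in CISP and -0.07 in ETP, and DMSO controls differed in this median by at most 0.06. In CISP the median was -0.11, -0.35 and -0.42 over the concentrations, and in AFB1 -0.13, -0.10 and -0.44. MMS had -0.47 at the high concentration and COL -0.03. Of the 206 genes 157 were below 0 in both AFB1 and CISP, a share that over all genes with a span cannot exceed the 37.6% of AFB1. Between the classes 3 of the 206 were called lower in bioactivated chemicals and 0 higher. Over all genes tested 1.73% were called lower and 0.675% higher, so long genes did not stand out in the calls. TENM1, a neuronal adhesion gene of 588 kb, had 13.6 RPM in AFB1 from 35.9, 21.1 in 2NF from 31.2, 21.2 in CISP from 36.2 and 18.7 in ETP from 29.9. WWOX, an oxidoreductase gene of 1113 kb that was picked after its values were seen, had 0.75 RPM in AFB1 from 8.02, 4.99 in 2NF from 10.9, 1.67 in CISP from 9.65 and 6.11 in ETP from 9.15. Of 15 P450 genes and 14 genes of secreted proteins with a span, 0 exceeded 400 kb, and the median spans were 31.8 and 12.7 kb.

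At the lower concentrations edgeR made no calls between the classes. At the mid concentration 0 of 13195 genes were called (0.0%), with 854 at an unadjusted p below 0.05 and 18 calls by DESeq2, and at the low concentration 0 of 13158 (0.0%), with 258 at an unadjusted p below 0.05 and 2 calls by DESeq2. The CISP libraries at these ranks, whose place in the dose series is taken here as uncertain, enter both fits. At the mid concentration both bioactivated chemicals had lower medians than both direct-acting ones for P450 genes, with -1.35 and -1.94 in AFB1 and 2NF and -0.12 and 0.03 in CISP and ETP. For mitosis genes the mid medians were 1.10, 1.77, 0.35 and 1.23 in AFB1, 2NF, CISP and ETP, so that ETP lay above AFB1. At the low concentration P450 medians were between -0.43 and 0.21, within the 0.46 by which DMSO controls differed.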

How the data were processed

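RNA of 3 pooled cultures per condition was measured with a targeted amplicon panel of 20812 targets, of which 10 were spike-ins with 0 counts. The authors aligned the reads to the human genome and deposited counts per target and RPM values, the deposited count scaled by the library total. Groups came from the sample titles, those of the controls from the treatment labels, and the activation class of each chemical from the study's own account. For the tests, deposited counts went into edgeR 4.0.16 in R 4.3.3 (TMM scaling, filterByExpr, quasi-likelihood test, Benjamini-Hochberg adjustment over all genes tested), with DESeq2 1.42.0 as an alternative, and the deposited RPM were described as log2(RPM + 1) with Python 3.11.15, numpy 2.4.6, pandas 2.3.3 and matplotlib 3.10.9. List medians used genes with a mean of at least 1 RPM over the 16 libraries and separated genes those with at least 5. On simulated counts the fit called 95% of 100 genes changed 4-fold, 54% of 100 genes changed 2-fold and 7 unchanged genes of 13017 tested. Unlike the data, the simulation used a single dispersion of 0.0126 for all genes and no differences between control sets. Each changed gene had the same fold in both bioactivated chemicals, so these shares may not hold for the real libraries. The p-values measure the spread between chemicals, and no library has a replicate. The members, gene lists and rules were chosen with earlier results of these data known.

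Named genes were CYP1A1, CYP1A2, CYP3A4, CDKN1A and MDM2, members of the fixed gene lists, the 10 genes of each direction with the largest difference among those called, the 10 of each direction with the widest gap among genes separated at the mid and high concentrations, and the 5 of each direction that moved furthest in all 4 chemicals. Alternatives were other scalings, filters, pseudocounts, control choices, concentration ranks, chemicals left out and MMS added. Gene spans came from GENCODE v29 (GRCh38) and promoters from RefSeq (GRCh38.p14), and the deposited files give no coordinates. Some genes that the rule names are not reported here.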

Additional observations from a re-analysis of the deposited data

Results flagged for a closer look

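These values were singled out because edgeR's test of the difference between the classes, at the high concentration, gave an adjusted p below 0.05. They are given for the called genes named here, as log2 differences of bioactivated minus direct-acting chemicals, over 317 called genes, and no cause was tested. Among drug-metabolising enzymes and carriers, the differences were -3.66 for CYP3A4, -3.47 for CYP2B6, -5.26 for CYP7A1, -3.64 for CYP2A6, -0.92 for CYP3A5, -3.61 for CYP8B1, -1.40 for AKR7A3, -2.24 for SULT2A1, -2.12 for UGT2B4, -1.65 for UGT2B15, -4.90 for SLC22A7 and -3.82 for ABCB11. UGT2B genes are close paralogs between which reads could be divided. Among regulators, secreted proteins and metabolic enzymes of the hepatocyte, they were -4.34 for NR1I3, -1.11 for ONECUT1, -1.03 for NR1H4, -3.79 for TAT, -2.29 for APOC3, -1.93 for TTR, -1.66 for TF, -4.64 for ARG1, -3.38 for CPS1, -3.77 for FABP1, -3.90 for ADH4, -3.96 for ANG, -3.15 for ACSM2A, -3.34 for HSD17B6, -4.43 for RDH16, -4.62 for G6PC, -5.92 for ABCG5, -4.83 for C2orf54, -4.54 for PROL1, -4.37 for PCK1 and -1.59 for SAA4.

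Among cell cycle genes, they were 1.76 for TOP2A, 1.34 for RRM2, 0.97 for RRM1, 2.29 for KIF11, 1.85 for CENPF, 2.34 for DEPDC1, 3.16 for CCNF, 1.83 for HIST1H3B, 1.60 for HIST1H2AH, 1.37 for HIST1H2AE, 1.03 for HIST1H4C, 2.34 for HIST2H3D and 1.03 for UBE2T. The remaining differences were 3.69 for CYP1B1, 1.79 for ALDH3A1, 3.64 for STC2, 3.00 for CHAC1, 2.23 for SLC7A5, 3.00 for HSPA6, 2.31 for RRAD, 1.73 for BAI2, 1.19 for SRXN1, -1.03 for MT1A and -0.80 for AKAP12.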

How the results depend on the processing

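Each activation class held 2 chemicals without replicate libraries, and class goes with control set and strength of response, which cannot be told apart. The 317 calls between the classes at the high concentration became 678 without a filter on low counts, 25 in 1 fit of 16 libraries, 0 with MMS added and 0 with the mid concentration of AFB1 and 2NF set against the high one of CISP and ETP, and ranged from 35 to 1370 with 1 chemical left out. DESeq2 called 269 of the 317 genes, and without the block that pairs treated libraries with their controls 214 genes were called, 141 of them among the 317. All 317 kept their direction except 3 without the block and 1 with the mid concentration set against the high one. These fits share libraries with the fit that made the calls. The 0 calls at the mid concentration became 18 with DESeq2, 50 without the filter and 0 to 161 with 1 chemical left out, and the 0 at the low one became 2 with DESeq2 and 0 to 2084. The 1702 calls of bioactivated chemicals against controls became 598 with MMS added and 933 in 1 fit. The 12 calls of direct-acting chemicals became 45 with DESeq2, 230 without the filter, 6 without the block, 2 with MMS added and 0 in 1 fit, and ranged from 0 to 729. The 919 separated genes became 605 at a mean of at least 20 RPM, 303 with MMS added and 412 with mid set against high. The causes of these shifts were not tested.

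The median difference of P450 genes (-2.16) was -2.78 with a pseudocount of 0.1, -1.71 with 5, -1.86 against the mean of the 4 DMSO controls, -1.84 with MMS added, -1.43 at mid, -0.27 at low and -1.46 with mid set against high. With 1 chemical left out it ranged from -2.85 to -2.26. That of AHR targets (1.26) was 0.73 with a pseudocount of 5, 0.51 against the mean of the DMSO controls and 0.66 at the low concentration, and ranged from 0.95 to 1.75. That of replication genes (0.66) was 0.80 against the mean of the DMSO controls, 0.39 at mid, 0.21 at low and 0.058 with mid set against high, and ranged from 0.52 to 0.77. That of p53 targets (0.31) was 0.016 at low and -0.032 with mid set against high, a reversal, and ranged from 0.071 to 0.50.

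That of bile acid and urea cycle enzymes (-2.06) was -3.18 with a pseudocount of 0.1, -1.20 with 5 and -0.48 over members with at least 10 counts in each library, and exceeded that of P450 genes with the smaller pseudocount and at mid (-1.61) and low (-0.49).

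Smaller list medians changed sign as well. At the low concentration these were AFB1 epoxidation and detoxification (0.13), 2NF metabolism (0.15), conjugation enzymes (0.26), transporters (0.048) and p53 repair (-0.11). With mid set against high they were p53 feedback (-0.044), p53 arrest (-0.12), p53 death (-0.035), NF-kappaB genes (-0.14) and metallothioneins (-0.87), and at the mid concentration NF-kappaB genes (-0.16) and metallothioneins (-1.24). Against the mean of the DMSO controls they were other cell type markers (0.095), nucleotide excision repair (-0.072) and immediate early genes (0.28), and AKAP12 was at 0.68. As means over genes they were 2NF metabolism (0.42) and immediate early genes (0.10), and with MMS added metallothioneins (-0.16) and immediate early genes (0.24). With 1 chemical left out, 2NF metabolism ranged from -0.33 to 0.13, other cell type markers from -0.45 to 0.19, p53 feedback from -0.018 to 0.50, nucleotide excision repair from -0.018 to 0.14, the stress response list from -0.14 to 0.58, NF-kappaB genes from -0.0096 to 0.39 and immediate early genes from -0.37 to 0.11.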
